A study of Mus musculus with 3 samples.

Results

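The genes described here encode membrane carriers for amino acids, glucose and lactate. They were chosen by name: a gene belonged to the set if the array annotation gave its probe set a single symbol of the solute carrier families 1, 2, 3, 6, 7, 16, 36, 38 or 43 (Slc1a1, Slc2a1 and so on), and it was represented by the probe set with the highest mean signal over the 3 arrays. The rule found 88 genes, with 169 probe sets, among 18193 named genes. Of these, 84 are carriers or subunits of carriers, and 4 carry such a symbol without being a carrier (Slc7a6os, Slc2a4rg-ps, Slc36a1os and Slc6a19os). Expression was measured in 3 populations of endosteal cells, which line the inner surface of bone, in C57BL/6 mice. Collagenase-treated femur and tibia fragments gave the cells, and those lacking the blood cell marker CD45, the vessel marker CD31 and the red cell marker Ter119 were sorted into ALCAM+ Sca-1- cells (called ALCAM+ here), ALCAM- Sca-1+ cells (called Sca-1+) and ALCAM- Sca-1- cells (called double-negative). ALCAM is a cell adhesion molecule, and Sca-1 is carried by many stem and progenitor cells. The labels give neither the age nor the number of the mice.

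Each population was measured on 1 array. No difference has a replicate check, no test between populations is possible, and higher and lower below refer to a size rule of 4-fold, or to printed values. Values are the deposited signal intensities, in which the 2% trimmed mean of each array is 500. A signal at or below a floor of 75.4, the median over all non-control probe sets and arrays, was treated as not measured, and a fold against such a value is given as at least that size. Signals of different genes come from different probes and are not compared with each other. In sorted populations of this kind, fewer cells of a type and less RNA per cell cannot be told apart.

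Amino acid carriers differ in what drives them. The SLC38 family and several SLC1 and SLC6 members use the sodium gradient to take up glutamine, alanine, glycine and other amino acids; SLC36 carriers use protons; and many SLC7 carriers exchange 1 amino acid for another and need a heavy chain from the SLC3 family to reach the membrane. Glucose enters through the SLC2 (GLUT) facilitators, and lactate and pyruvate cross with a proton through SLC16 (MCT) carriers. Bone-forming cells take up glucose, glutamine, proline and glycine in bulk for collagen synthesis and energy, and cartilage cells, which live far from vessels, depend on glycolysis and release lactate.

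The arrays differed in the cell types they showed. Alcam had a signal of 267.7 in ALCAM+, 41.1 in Sca-1+ and 36.3 in double-negative cells, and Ly6a, which encodes Sca-1, is not analysed here. Pecam1, which encodes CD31, stayed below the floor on the 3 arrays, and Ptprc, which encodes CD45, had 11.6 in ALCAM+, 163.2 in Sca-1+ and 159.4 in double-negative cells. The summed signal of 10 chondrocyte markers was 229435 in ALCAM+, 4827 in Sca-1+ and 191283 in double-negative cells, and that of 9 osteoblast and osteocyte markers was 145699, 9991 and 46653 in the same order, with Sost and Mepe below the floor on the 3 arrays. Markers of fibroblasts and mesenchymal progenitors, 11 in number, summed to 6104.5 in ALCAM+, 119322 in Sca-1+ and 3468 in double-negative cells. Pdgfra alone gave 5122 of the ALCAM+ sum, and the median log2 difference of the list was -0.38 in ALCAM+ over double-negative cells. Red cell precursor markers, 9 of which were found, summed to 1718, 682 and 24517, and 9 genes of dividing cells to 1985, 1903 and 28535. The neutrophil list of 10 genes summed to 499, 16439 and 3614, with 6 genes higher and 3 lower in Sca-1+ than in double-negative cells; the lower ones were the early granule genes Mpo, Elane and Prtn3. Of the marker lists for other cells, 6 of 10 macrophage genes, 4 of 8 osteoclast genes, 4 of 8 endothelial genes, 6 of 7 lymphocyte genes, 2 of 7 adipocyte genes and 6 of 8 muscle genes were below the floor on the 3 arrays. The measured genes went different ways between these lists and within some of them. In the osteoclast list all 4 measured genes were highest in Sca-1+ cells, with a median log2 difference of 1.11 over double-negative cells. In the adipocyte list all measured genes but Adipoq were highest in Sca-1+ cells, with a list median of 0.74 over double-negative cells. Among the genes highest in Sca-1+ cells, the adipocyte and stromal lipase gene Lpl had 174.8 in ALCAM+, 7558 in Sca-1+ and 647.0 in double-negative cells. In the same order the endothelial gene Tek had 28.8, 630.6 and 18.8, and the myeloid gene Lyz2 96.6, 888.0 and 262.3. The osteoclast gene Ctsk had 6778, 9739 and 3290. Among those highest in double-negative cells, the muscle genes Acta1 and Tnnt3 had 528.5, 51.2 and 627.3, and 110.4, 49.6 and 279.2. The adipocyte gene Adipoq had 24.6, 43.8 and 120.4, and the endothelial gene Vwf 41.3, 1.9 and 99.4. The monocyte gene Cd14 was highest in ALCAM+ cells, with 629.2, 497 and 499.8.

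Of the 88 genes, 60 had a signal above the floor on at least 1 array, and 38 on all 3 arrays; over all named genes, 12643 of 18193 did so on at least 1 array. Those 60 passed through whichever population was high, so their counts describe these arrays only. In ALCAM+ against double-negative cells 3 of the 60 were at least 4-fold higher (Slc36a2, Slc6a2 and Slc7a8), where 2.01% of all measured genes were, and 3 were lower (Slc38a1, Slc38a5 and Slc16a6), where 2.67% of all genes were. In Sca-1+ against double-negative cells 2 were higher (Slc6a2 and Slc16a9; 5.46% of all genes) and 9 lower (Slc38a3, Slc38a4, Slc38a5, Slc2a5, Slc6a12, Slc16a4, Slc16a6, Slc1a1 and Slc43a3; 4.71% of all genes). In ALCAM+ against Sca-1+ cells 7 were higher (Slc36a2, Slc38a4, Slc38a3, Slc2a5, Slc16a4, Slc1a1 and Slc6a12; 3.99% of all genes) and 3 lower (Slc38a1, Slc16a9 and Slc1a3; 5.86% of all genes). The 3 comparisons share their arrays, and the last is the difference of the others. Scaling the arrays on the poly-A spike-in controls instead changed the split to 2 higher and 8 lower in ALCAM+ against double-negative cells and to 6 higher and 10 lower in ALCAM+ against Sca-1+ cells, and scaling on the hybridization controls to 2 and 4 and to 6 and 8. At a 2-fold size 9 of the 60 were higher and 15 lower in ALCAM+ than in double-negative cells, where 6.68% and 10.6% of all measured genes were. Against the same array 6 were higher and 16 lower in Sca-1+ cells, with 15% and 12.7% of all genes, and ALCAM+ cells had 14 higher and 13 lower than Sca-1+ cells, with 11.2% and 15.8%.

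**Figure D1:**
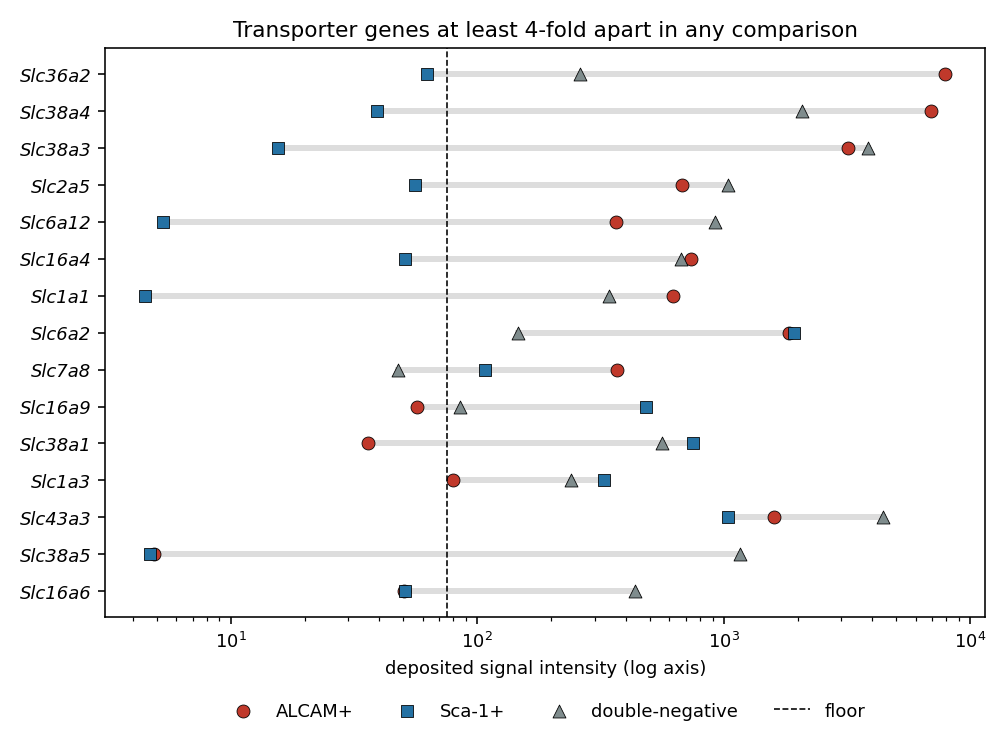
Deposited signal intensity on a log axis of the 15 transporter genes that were at least 4-fold apart in any comparison, with a circle for ALCAM+, a square for Sca-1+ and a triangle for double-negative cells, 1 array each, and the floor of 75.4 as a dashed line. The upper 7 genes have their Sca-1+ value below the floor and both other values above it, and Slc38a5 and Slc16a6, at the bottom, are above the floor in double-negative cells only.

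The median log2 difference of the 60 genes was -0.18 in ALCAM+ against double-negative cells, where that of all measured genes was -0.03. It was -0.23 in Sca-1+ against double-negative cells, with 0 over all genes, and 0.01 in ALCAM+ against Sca-1+ cells, with -0.01 over all genes. The signal was highest in ALCAM+ cells for 17 of the 60, in Sca-1+ cells for 17 and in double-negative cells for 26, which is 28.3%, 28.3% and 43.3% of them; over all measured genes the shares were 28.1%, 38.7% and 33.2%. Above the floor in ALCAM+ and double-negative cells but not in Sca-1+ cells were 8 of the 60 (13.3%, against 4.65% of all measured genes): the upper 7 genes of the plot of signals by population and the cationic amino acid carrier gene Slc7a3.

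**Figure D2:**
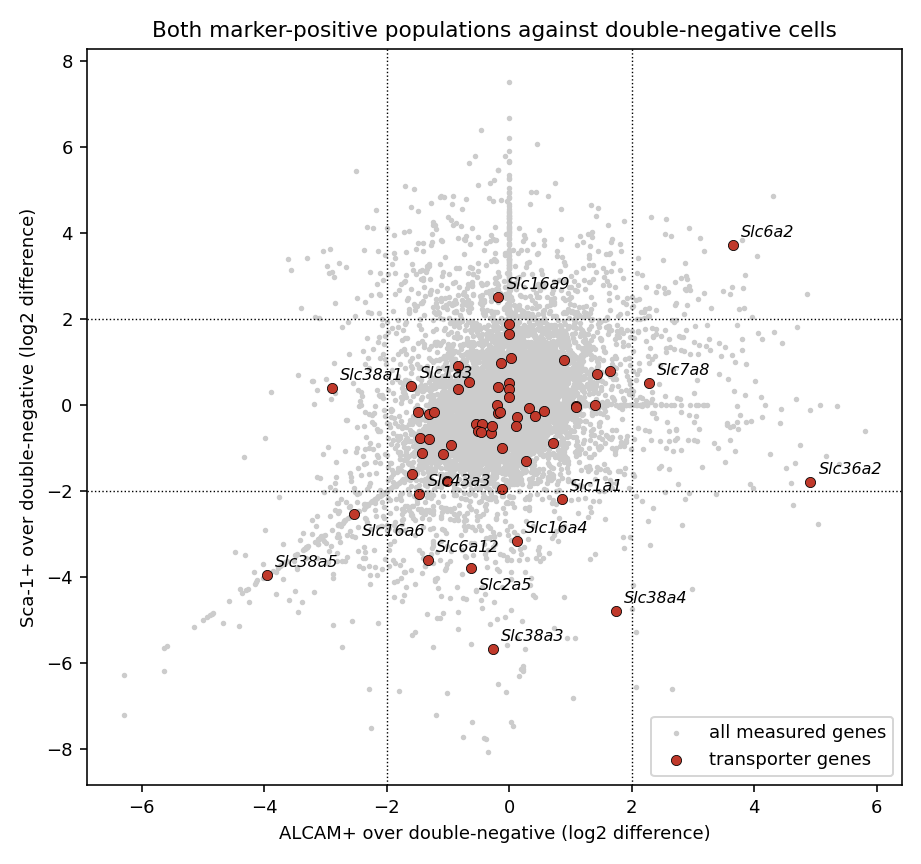
Log2 difference of Sca-1+ over double-negative cells (vertical) against that of ALCAM+ over double-negative cells (horizontal) for all measured genes (grey) and the 60 measured transporter genes (red), with dotted lines at 4-fold; both axes share the double-negative array. Slc36a2 lies far to the right, Slc6a2 is high on both axes, Slc38a3 and Slc38a4 lie lowest, and Slc38a5 and Slc16a6 lie on the diagonal, where both other populations are at the floor.

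Among carriers of glutamine and small neutral amino acids, Slc38a1, Slc38a3, Slc38a4 and Slc38a5 were past 4-fold. All 11 of these genes, from the SLC38 and SLC1 families, were above the floor in double-negative cells, 9 in ALCAM+ and 8 in Sca-1+ cells. Slc38a4, a sodium-coupled carrier gene of alanine and other small amino acids that is imprinted in mouse, had a signal of 6922 in ALCAM+, 39.2 in Sca-1+ and 2081 in double-negative cells. It was 3.33-fold higher in ALCAM+ than in double-negative cells, at least 27.6-fold lower in Sca-1+ than in double-negative cells and higher by at least 91.8-fold in ALCAM+ than in Sca-1+ cells. Its other probe set above the floor showed the same order, at 1309, 68.3 and 994.9. Slc38a3, whose product carries glutamine, histidine and asparagine in either direction, was likewise below the floor in Sca-1+ cells alone, with 3197 in ALCAM+, 15.5 in Sca-1+ and 3838 in double-negative cells. That is at least 50.9-fold lower in Sca-1+ than in double-negative cells and higher by at least 42.4-fold in ALCAM+ than in Sca-1+ cells, whereas ALCAM+ and double-negative cells were 1.20-fold apart. These 4 calls against Sca-1+ cells held in each of the 6 alternative treatments of the data, and the summed chondrocyte and osteoblast markers given above were also lowest in Sca-1+ cells, although Phex, an osteocyte marker, had 1376 in Sca-1+ and 1165 in double-negative cells; their part in these values was not tested.

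Slc38a5, of the same functional type as Slc38a3, showed another distribution. Its signal was 4.9 in ALCAM+ and 4.7 in Sca-1+ cells, against 1168 in double-negative cells, so it was at least 15.5-fold lower in both. All 9 red cell precursor markers were above the floor in double-negative cells, 3 were in ALCAM+ and 2 in Sca-1+ cells; Klf1, a transcription factor gene of those cells, had 58.6, 58.6 and 3649 in ALCAM+, Sca-1+ and double-negative cells. The part of these cells in the Slc38a5 value was not tested.

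Slc38a1, Slc38a2 and Slc38a4 follow each other on mouse chromosome 15 with no other protein-coding gene between them. By their main probe sets Slc38a2 and Slc38a4 shared an order, highest in ALCAM+ and lowest in Sca-1+ cells, with differences of unlike size. The order of Slc38a1 was another. Slc38a1, a sodium-coupled glutamine and alanine carrier gene, was low in the cells in which Slc38a4 was highest: it had 36 in ALCAM+, 746.9 in Sca-1+ and 563.5 in double-negative cells, at least 7.47-fold lower in ALCAM+ than in double-negative and at least 9.91-fold lower than in Sca-1+ cells. A second Slc38a1 probe set gave 149.0, 353.3 and 465.3, so ALCAM+ was again lowest, by less than 4-fold. Slc38a2, the amino acid starvation-responsive carrier gene between them, differed by at most 1.62-fold, with 21439 in ALCAM+, 13211 in Sca-1+ and 14518 in double-negative cells. One of its dimmer probe sets went apart from that, at 1162, 90.5 and 352.2. Under scaling on the poly-A controls the Slc38a2 difference between ALCAM+ and double-negative cells turned from 0.56 to -0.07 on the log2 scale.

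**Figure D3:**
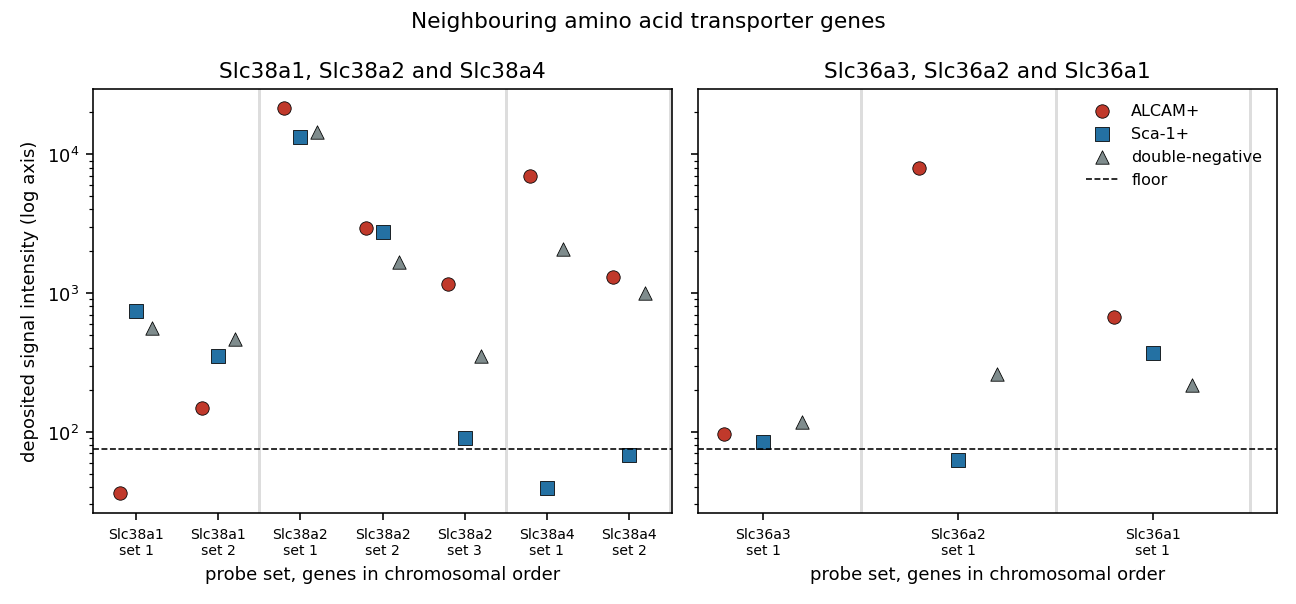
Signal intensity on a log axis of each probe set above the floor on any array, for 3 neighbouring genes of chromosome 15 (left) and 3 of chromosome 11 (right), with a circle for ALCAM+, a square for Sca-1+ and a triangle for double-negative cells; set 1 is the probe set used for the gene. Slc38a1 is lowest in ALCAM+ cells and Slc38a4 lowest in Sca-1+ cells in both of their probe sets, and of the right-hand genes Slc36a2 alone spans more than 4-fold.

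The promoters of 4 genes are shown as examples of different distributions. Slc38a4, Slc2a5 and Slc16a4 were below the floor in Sca-1+ cells only, and Slc38a5 was above it in double-negative cells only. Slc1a1 and Slc6a12 were also below the floor in Sca-1+ cells only and had windows, which are not printed. Each is the 300 bases from 250 before to 50 after an annotated start site, from RefSeq on GRCm38.p6, in which 64 of the 88 genes and 9 of the 15 genes past 4-fold had at least 1 window. Capitals mark matches on either strand to TGTGGT, the core bound by RUNX factors of bone and cartilage cells, or to the forms bound by GATA factors, namely AGATAA and its variant AGATAG, and likewise TGATAA and its variant TGATAG; no matches of the RUNX and GATA letters overlap here. The positions are chr15:97055907-97056206 on the minus strand for Slc38a4 (the most upstream of its 3 windows), chr4:150119094-150119393 on the plus strand for Slc2a5, chr3:107290980-107291279 on the plus strand for Slc16a4 and chrX:8271131-8271430 on the plus strand for Slc38a5.
Slc38a4: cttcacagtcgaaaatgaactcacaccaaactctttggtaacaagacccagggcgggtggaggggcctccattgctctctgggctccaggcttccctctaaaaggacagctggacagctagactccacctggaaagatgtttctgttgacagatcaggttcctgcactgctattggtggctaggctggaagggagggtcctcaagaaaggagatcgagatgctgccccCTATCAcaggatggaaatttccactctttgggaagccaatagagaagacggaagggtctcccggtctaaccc
Slc2a5: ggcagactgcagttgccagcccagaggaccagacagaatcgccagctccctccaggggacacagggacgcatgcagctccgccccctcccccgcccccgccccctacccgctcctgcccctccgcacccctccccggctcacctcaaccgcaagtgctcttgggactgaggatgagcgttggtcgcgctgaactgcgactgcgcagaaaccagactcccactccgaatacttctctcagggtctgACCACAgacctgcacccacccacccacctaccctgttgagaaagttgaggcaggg
Slc16a4: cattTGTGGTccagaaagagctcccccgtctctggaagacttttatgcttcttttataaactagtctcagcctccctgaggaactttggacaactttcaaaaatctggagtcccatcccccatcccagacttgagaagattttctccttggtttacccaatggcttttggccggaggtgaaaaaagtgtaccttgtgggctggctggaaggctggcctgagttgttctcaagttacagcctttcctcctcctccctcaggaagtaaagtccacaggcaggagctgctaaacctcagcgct
Slc38a5: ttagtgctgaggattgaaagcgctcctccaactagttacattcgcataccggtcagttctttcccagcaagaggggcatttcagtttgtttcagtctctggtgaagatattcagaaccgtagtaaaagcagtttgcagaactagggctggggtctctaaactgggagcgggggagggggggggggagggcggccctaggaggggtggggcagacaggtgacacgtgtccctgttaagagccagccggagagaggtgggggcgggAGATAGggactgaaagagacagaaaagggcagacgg
The Slc2a5 and Slc16a4 windows hold 1 RUNX core each, and the Slc38a4 and Slc38a5 windows hold 1 GATA match each. Of the windows not printed, that of Slc1a1 holds neither, and each of Slc6a12 holds a RUNX core or a GATA match. Over the 15 windows of those 9 genes, several of which overlap within Slc6a12, 4 hold the RUNX core and 6 a GATA match, and of all 32851 windows 16.8% and 29.8% do. The element bound by the amino acid response factor ATF4, searched as TGATGNAA on both strands, was in 0 of the 15 windows and in 3.97% of all windows. The SOX letters ACAAAG and its variant ACAATG, and the hypoxia factor core ACGTG, on both strands, were each in 2 of the 15 windows, against 28.6% and 19.6% of all windows. A match of letters is a description and not a binding site.

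The remaining small neutral carriers differed less. Slc1a5, an exchanger gene known for glutamine uptake in dividing cells, had 1480 in ALCAM+, 4938 in Sca-1+ and 2652 in double-negative cells, 3.34-fold lower in ALCAM+ than in Sca-1+ cells. Its second, much dimmer probe set passed the floor in double-negative cells only, with 26, 73 and 116. With probe sets averaged the log2 differences were -0.87 in ALCAM+ over Sca-1+ and 0.14 in Sca-1+ over double-negative cells. The dimmer probe set enters the first of these averages as 0. Slc38a10 had 19694, 12381 and 14696 in the same order, within 1.59-fold. Slc38a7, a glutamine exporter gene of lysosomes singled out after its values were seen, was 3.14-fold higher in Sca-1+ than in double-negative cells, at 710.8 against 226.3, with 226.0 in ALCAM+ cells. By their main probe sets Slc38a6, Slc38a9, which senses arginine at lysosomes, and Slc1a4, an exchanger of alanine, serine and cysteine, were within 2.34-fold in each comparison. A dimmer Slc38a9 probe set was higher in Sca-1+ than in double-negative cells, at 195.2 against 54.2, with 148.4 in ALCAM+ cells. Its other probe sets above the floor were not higher there. Slc1a4 was lowest in ALCAM+ cells, at 705.7, against 1486 in Sca-1+ and 1654 in double-negative cells. Both of its other probe sets were also lowest in ALCAM+ cells but highest in Sca-1+ cells. They had 122.2, 464.6 and 317.8, and 69.0, 233.1 and 213.7, in ALCAM+, Sca-1+ and double-negative cells. The brighter of them had a log2 difference of -1.93 in ALCAM+ over Sca-1+ cells.

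Among the 4 proton-coupled SLC36 genes, Slc36a2 stood far from the others. Slc36a2, whose product takes up glycine, proline and alanine, had a signal of 7906 in ALCAM+, 62.4 in Sca-1+ and 261.8 in double-negative cells. It was 30.2-fold higher in ALCAM+ than in double-negative cells and at least 105-fold above Sca-1+ cells, and both calls held in each of the 6 alternatives; it has a single probe set. On chromosome 11 it lies directly between Slc36a3 and Slc36a1. Slc36a1, a carrier gene of lysosomes and the cell membrane, was also highest in ALCAM+ cells, at 670.9 against 370.7 in Sca-1+ and 215.9 in double-negative cells, 3.11-fold higher than in double-negative cells; its lead over Sca-1+ cells turned under poly-A scaling. Slc36a3 stayed between 84.2 and 118.7, and Slc36a4 had 1272 in ALCAM+, 971.6 in Sca-1+ and 1023 in double-negative cells, an order that spike-in scaling turned in ALCAM+ against both others. Beside Slc36a2 the osteoblast and osteocyte markers had their highest sum in ALCAM+ cells. There 7 of 7 measured ones were at least 4-fold above Sca-1+ and 3 of 7 above double-negative cells. Chondrocyte markers also had their highest sum there, with 10 of 10 and 2 of 10 in the same comparisons. Of all measured genes 3.99% and 2.01% were higher by that size. The part of both lists in the Slc36a2 signal was not tested.

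Heteromeric carriers of the SLC3 and SLC7 families were for the most part near even. Slc3a2, the heavy chain gene also known as CD98, had 6084 in ALCAM+, 4611 in Sca-1+ and 5585 in double-negative cells, within 1.32-fold. Slc7a6, a light chain gene of dibasic amino acid exchange, had 1435, 947.3 and 1334 in the same order. Its relative Slc7a7 was 2.69-fold higher in ALCAM+ than in double-negative cells, at 920.8 against 341.7, with 566.5 in Sca-1+ cells. The large neutral amino acid carriers went opposite ways: Slc7a8 (LAT2) was higher by at least 4.88-fold in ALCAM+ than in double-negative cells, at 367.9 against 47.7, with 107.4 in Sca-1+ cells, and Slc7a5 (LAT1), chosen with its values known, was 2.68-fold lower, at 221.7 in ALCAM+, 272.4 in Sca-1+ and 594.9 in double-negative cells. The Slc7a8 call rests on 1 probe set near the floor and fell below 4-fold under spike-in scaling. The cystine carrier gene Slc7a11 was below the floor on the 3 arrays, as were 5 others of the 12 genes in this class, among them the kidney heavy chain gene Slc3a1.

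Cationic amino acid carriers had no measured fold or bound of 4 in any comparison. Slc7a1 (CAT1), the general arginine and lysine carrier gene, had 3347 in ALCAM+, 1984 in Sca-1+ and 6790 in double-negative cells, 2.03-fold lower in ALCAM+ and 3.42-fold lower in Sca-1+ than in double-negative cells. A second probe set showed the same order, at 1407, 566.5 and 2246, although spike-in scaling turned the main probe set's order between ALCAM+ and Sca-1+ cells. Slc7a2 (CAT2) was highest in Sca-1+ cells by its main probe set, at 535.3 in ALCAM+, 1228 in Sca-1+ and 847.8 in double-negative cells, but lowest there in its other 2 probe sets above the floor. Slc7a4 stayed between 160.0 and 250.5, and Slc7a3, close to the floor throughout, had 138.4 in ALCAM+, 67.0 in Sca-1+ and 150.0 in double-negative cells.

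Facilitators of large neutral amino acids were above the floor on every array. Slc16a10, an aromatic amino acid carrier gene, had 147.0 in ALCAM+, 145.2 in Sca-1+ and 443.1 in double-negative cells, close to 3-fold lower in both marker-positive populations (3.01-fold and 3.05-fold). Slc43a1 (LAT3) was also highest in double-negative cells, at 103.4, 167.0 and 285.0, whereas Slc43a2 (LAT4) was lowest there, at 741.0 in ALCAM+, 825.7 in Sca-1+ and 398.4 in double-negative cells. Slc43a3, a nucleobase carrier gene of the same family, had 1592, 1045 and 4404 in ALCAM+, Sca-1+ and double-negative cells and was 4.21-fold lower in Sca-1+ than in double-negative cells. That value lies just past the size rule and fell under it in both spike-in scalings.

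The 2 measured carriers of glutamate and aspartate took opposite courses. Slc1a1 (EAAC1), which also carries cysteine, had 620.8 in ALCAM+, 4.5 in Sca-1+ and 340.8 in double-negative cells, higher by at least 8.23-fold in ALCAM+ than in Sca-1+ and at least 4.52-fold lower in Sca-1+ than in double-negative cells. Its other probe sets were also higher in ALCAM+ than in Sca-1+ cells. The brighter of them had 341.6 in ALCAM+, 25.8 in Sca-1+ and 240.5 in double-negative cells, so it was lower in Sca-1+ than in double-negative cells too. The dimmer had 140.1, 3.9 and 45.9 and gave no value for that comparison, being below the floor in both. With probe sets averaged the log2 difference of Slc1a1 between Sca-1+ and double-negative cells was -1.28, under 4-fold. The dimmest probe set enters that average as 0. Slc1a3 (GLAST), a glutamate carrier gene of glia that is also found in bone cells, had 79.4, 326.7 and 240.4 and was 4.11-fold lower in ALCAM+ than in Sca-1+ cells, a call lost under quantile normalization or when probe sets were averaged. Its other probe sets were below the floor on the 3 arrays and enter that average as 0. Slc1a2, Slc1a6 and Slc1a7 were below the floor on the 3 arrays.

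Glucose facilitators were measured for 9 of 11 genes, and their median log2 differences were 0.00 in ALCAM+ and -0.04 in Sca-1+ over double-negative cells and 1.11 in ALCAM+ over Sca-1+ cells. Slc2a1 (GLUT1), the main glucose carrier gene of osteoblasts in mouse, had 7678 in ALCAM+, 2166 in Sca-1+ and 8346 in double-negative cells, 3.85-fold lower in Sca-1+ than in double-negative cells and 3.55-fold higher in ALCAM+ than in Sca-1+ cells. Its other 2 probe sets had the same order, with differences of -1.81 and -1.53 on the log2 scale between Sca-1+ and double-negative cells. Slc2a5 (GLUT5), a fructose carrier gene, was the one gene of the class past 4-fold at this floor, with 677.3 in ALCAM+, 55.7 in Sca-1+ and 1041 in double-negative cells: at least 13.8-fold lower in Sca-1+ than in double-negative cells and higher by at least 8.98-fold in ALCAM+ than in Sca-1+ cells. Slc2a10 and the proton-linked myo-inositol carrier gene Slc2a13 were each about 2-fold higher in ALCAM+ than in both other populations. Slc2a10 had 2364 in ALCAM+, 1093 in Sca-1+ and 1108 in double-negative cells, and Slc2a13 had 3143, 1434 and 1479. Under poly-A scaling their log2 differences were 0.23 and 0.25 in ALCAM+ over Sca-1+ cells and 0.47 and 0.46 in ALCAM+ over double-negative cells. GLUT3 and GLUT4 genes, added after their values were seen, differed in the same comparison: Slc2a3 had 196.3 in ALCAM+, 491.8 in Sca-1+ and 553.3 in double-negative cells, and Slc2a4, the insulin-responsive carrier gene, 325.7, 107.6 and 197.7. Slc2a12 was highest in Sca-1+ cells, at 467.2, with 222.7 in ALCAM+ and 217.4 in double-negative cells, and the urate carrier gene Slc2a9 passed the floor in Sca-1+ cells only, at 97.9.

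Proton-linked monocarboxylate carriers were all highest in double-negative cells. Slc16a1 (MCT1), a carrier gene of lactate and pyruvate in most tissues, had 1815 in ALCAM+, 1833 in Sca-1+ and 3520 in double-negative cells, 1.94-fold and 1.92-fold lower in the marker-positive populations. Slc16a3 (MCT4), the lactate exporter gene of glycolytic cells, had 41.6 in ALCAM+, 163.0 in Sca-1+ and 187.8 in double-negative cells, at least 2.49-fold lower in ALCAM+ than in double-negative cells. With the floor at 21.1 that log2 difference was -2.17, past 4-fold. Its small difference between Sca-1+ and double-negative cells turned under spike-in scaling. Slc16a7 (MCT2) had 102.9, 148.8 and 256.4. The glycoprotein genes Bsg and Emb, whose products bring these carriers to the membrane, were 2 of the 3 measured genes of a list of 5 carrier partners. Bsg was within 1.37-fold across the populations, and Emb, with 899.3 in ALCAM+, 4110 in Sca-1+ and 1912 in double-negative cells, was 4.57-fold lower in ALCAM+ than in Sca-1+ cells. Of all measured genes 5.86% were at least 4-fold lower in that comparison.

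Other SLC16 genes, with less settled substrates, differed more. Slc16a4 had 735.1 in ALCAM+, 50.8 in Sca-1+ and 671.1 in double-negative cells, at least 9.75-fold higher in ALCAM+ and at least 8.90-fold lower in Sca-1+ in the comparisons with each other and with double-negative cells. Averaged with its other probe set the log2 differences were 1.64 and -1.58, under 4-fold. Slc16a9 was the opposite, with 56.9 in ALCAM+, 484.7 in Sca-1+ and 85.3 in double-negative cells, 5.68-fold higher in Sca-1+ than in double-negative cells and at least 6.43-fold lower in ALCAM+ than in Sca-1+ cells. Both of its other probe sets above the floor were highest in Sca-1+ cells, at 333.2 and 100.2, but the averaged log2 differences, 1.69 and -1.75 in these comparisons, were under 4-fold. Slc16a6 was above the floor in double-negative cells only, at 436.8, with 50.4 in ALCAM+ and 50.9 in Sca-1+ cells, at least 5.79-fold lower in both. Slc16a11 had 78.7 in ALCAM+, 76.1 in Sca-1+ and 167.4 in double-negative cells. The summed signals of red cell precursor and dividing cell markers, given above, were likewise highest in double-negative cells and that of fibroblast and progenitor markers in Sca-1+ cells; their part in the values of Slc16a6, Slc43a3 and Slc16a9 was not tested.

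SLC6 carriers of amino acids and osmolytes were measured for 9 of 14 genes. Slc6a8, the creatine carrier gene, had 1846 in ALCAM+, 2131 in Sca-1+ and 2130.1 in double-negative cells. Its second probe set had 1229, 403.7 and 1013, lowest in Sca-1+ cells, and averaging both turned the log2 difference of ALCAM+ over Sca-1+ cells from -0.21 to 0.70. The taurine carrier gene Slc6a6 had 915.3 in ALCAM+, 2115 in Sca-1+ and 1632 in double-negative cells. The glycine carrier gene Slc6a9, known to supply glycine for heme in red cell precursors, had 575.1, 539.6 and 823.4 in the same order, within 1.53-fold by its main probe set. Its second probe set, at 181.1, 238.2 and 392.4, was also highest in double-negative cells but lowest in ALCAM+ cells. Its log2 difference in ALCAM+ over double-negative cells was -1.12. Slc6a12, the betaine carrier gene that protects cells from osmotic stress, had 365.4 in ALCAM+, 5.3 in Sca-1+ and 917.2 in double-negative cells, at least 12.2-fold lower in Sca-1+ than in double-negative cells. It was also higher by at least 4.85-fold in ALCAM+ than in Sca-1+ cells, a call lost in both spike-in scalings. Slc6a13, its neighbour on chromosome 6 with no protein-coding gene between, had 12.9, 26.5 and 85.4 in the same order. Slc6a7, the brain proline carrier gene, passed the floor in Sca-1+ cells only, at 279.4, with 5.1 in ALCAM+ and 12.4 in double-negative cells, a difference of at least 3.71-fold from each. The difference passed 4-fold with poly-A scaling (2.27 on the log2 scale), hybridization scaling (2.25) and the lower floor (3.73). Slc6a15 passed the floor in ALCAM+ cells only, at 198.0, at least 2.63-fold higher than in the others, and Slc6a20a in double-negative cells only, at 102.6.

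Of the SLC6 carriers of monoamines and GABA, Slc6a2 alone was above the floor on every array. Slc6a2 encodes the noradrenaline carrier of sympathetic neurons, and its main probe set had 1840 in ALCAM+, 1918 in Sca-1+ and 146.0 in double-negative cells, 12.6-fold and 13.1-fold higher in the marker-positive populations. Its dimmer probe sets differed less. The first of the 2 above the floor on any array had 68.4 in ALCAM+, 108.2 in Sca-1+ and 29.1 in double-negative cells, again higher in Sca-1+ cells, by at least 0.52 on the log2 scale. The other was highest in double-negative cells, with 104.0, 75.1 and 122.8. Averaged over its 4 probe sets the log2 differences were 0.85 and 0.88. Slc6a4, the serotonin carrier gene, was above the floor in Sca-1+ cells only, at 107.4, and Slc6a13, a GABA carrier gene, in double-negative cells only, at 85.4.

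**Figure D4:**
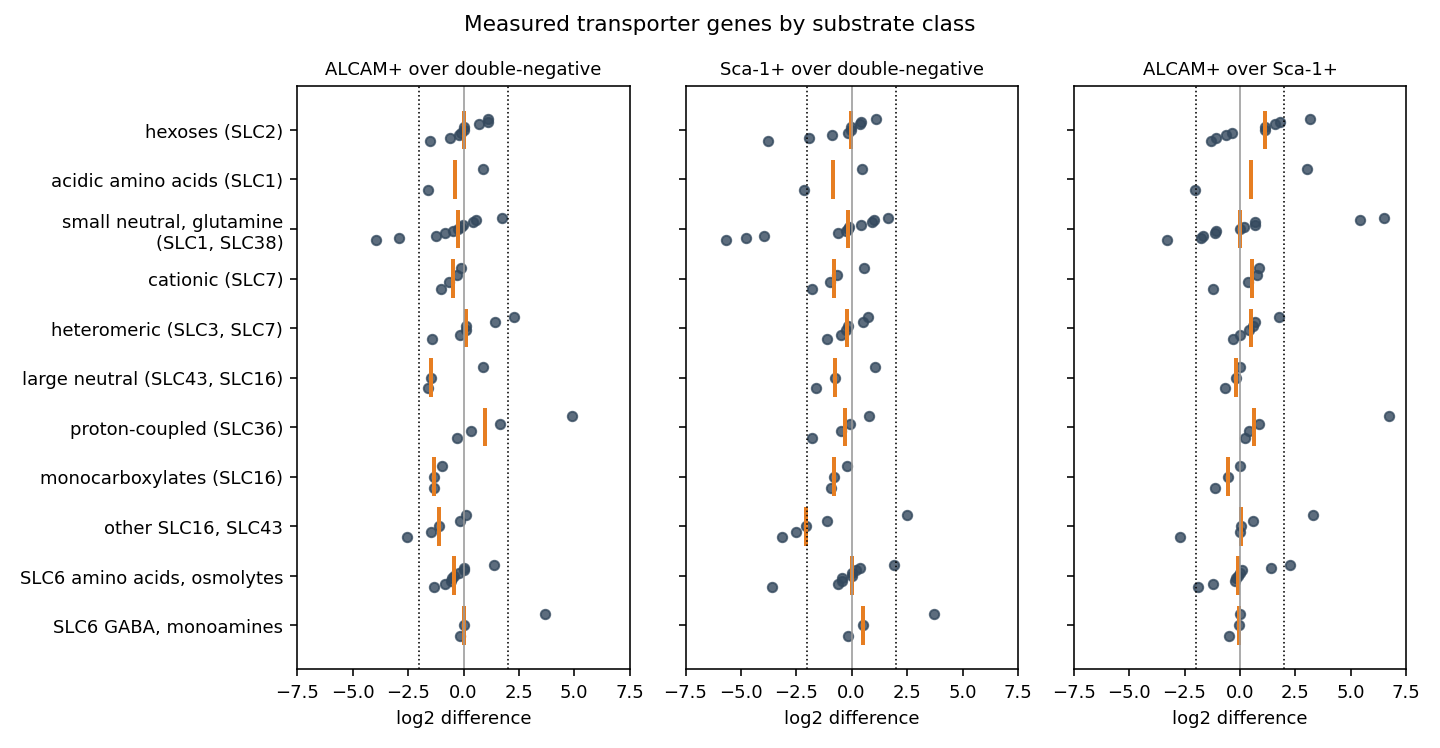
Log2 differences in the 3 comparisons for each measured transporter gene by substrate class (points), with the class median as an orange bar and dotted lines at 4-fold; each point is 1 gene, and 1 gene that is no carrier is left out. Medians lie mostly within 1 of 0, and single genes of the SLC38, SLC36, SLC2, SLC1, SLC7, SLC16, SLC43 and SLC6 classes lie past the dotted lines.

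In addition to the carriers, enzymes that use the same substrates were examined as lists. Of 10 measured enzymes of glutamine, glutamate and asparagine, 1 passed the size rule upwards in Sca-1+ against double-negative cells, where 5.46% of all measured genes did, with a list median of 0.08. That gene, Glul, which makes glutamine from glutamate, had 445.9 in ALCAM+, 7802 in Sca-1+ and 1401 in double-negative cells. It was 5.57-fold higher in Sca-1+ than in double-negative cells and 17.5-fold lower in ALCAM+ than in Sca-1+ cells. In the latter comparison it was again the only gene of the list past 4-fold (median -0.80), where 5.86% of all measured genes were lower. Serine, glycine and proline synthesis had 2 of 9 genes lower in Sca-1+ than in double-negative cells (median -0.95), Psat1 at 4.82-fold and Mthfd2 at 4.27-fold, where 4.71% of all measured genes were. It had 2 higher in ALCAM+ than in Sca-1+ cells (median 0.34), Psat1 at 7.79-fold and Aldh1l2 at 5.66-fold, where 3.99% of all genes were. Psat1, an enzyme gene of serine synthesis, had 1583 in ALCAM+, 203.2 in Sca-1+ and 980.1 in double-negative cells. In the branched-chain and arginine list Bcat1, the cytosolic branched-chain aminotransferase gene, was the only 1 of 9 past 4-fold, with 1253 in ALCAM+, 285.4 in Sca-1+ and 3339 in double-negative cells. It was 11.7-fold lower in Sca-1+ than in double-negative cells, with a list median of -0.21, and 4.39-fold higher in ALCAM+ than in Sca-1+ cells, with a list median of -0.01. Of all measured genes 4.71% and 3.99% passed 4-fold in these directions. Of 15 genes for glucose phosphorylation and lactate handling, 2 were lower in Sca-1+ than in double-negative cells (median -0.72), Pfkl at 7.35-fold and Pdk1 at 5.77-fold, where 4.71% of all measured genes were. Pdk4, a kinase gene that holds pyruvate back from oxidation, was 6.66-fold higher in ALCAM+ than in double-negative cells, with 3801 in ALCAM+, 337.2 in Sca-1+ and 570.7 in double-negative cells, and 11.3-fold higher in ALCAM+ than in Sca-1+ cells. It was the only 1 of the 15 past 4-fold in these comparisons (medians 0.15 and 0.87), where 2.01% and 3.99% of all measured genes were higher.

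The other 28 of the 88 genes were below the floor on the 3 arrays. Besides those named above they were Slc2a2 and Slc2a6 of the hexose carriers, Slc7a9, Slc7a12, Slc7a13, Slc7a14 and Slc7a15, Slc16a5, Slc16a8, Slc16a12, Slc16a13 and Slc16a14, and Slc6a3, Slc6a5, Slc6a11, Slc6a14, Slc6a16, Slc6a18, Slc6a20b and Slc6a21, with the non-carriers Slc2a4rg-ps, Slc36a1os and Slc6a19os. Slc7a6os, which adjoins Slc7a6 on chromosome 8 and encodes no carrier, was the measured one of those 4, with 473.4 in ALCAM+, 158.7 in Sca-1+ and 390.0 in double-negative cells. In all, 45 genes passed the floor without a measured fold or lower bound of 4 in any comparison; for those with a value below the floor the true fold may be larger. As a measure of error, 4152 genes had several probe sets above the floor throughout, and their log2 differences disagreed within a gene with an SD per probe set of 0.38, 0.47 and 0.53 in the 3 comparisons, in the order used here. The spread between sorts and between mice is not part of that error.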

How the data were processed

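The series holds 3 microarrays of sorted mouse endosteal cells, 1 for each population named in the array titles. RNA was taken up in TRIzol and amplified in 2 cycles before biotin labelling, per the labels' protocols. The deposited values are signal intensities of 45101 probe sets on a linear scale. The authors used MAS5 for them, per the submitters' processing notes, which name no version. The 2% trimmed mean was 500 on each array, so total signals are equal by construction and differences in RNA per cell are not visible. With 3 arrays the precision is that of single measurements.

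Control probe sets (64) were left out. Of the others, 34945 had 1 gene symbol in the array annotation, 932 had several and 9160 were unnamed; an update through a RefSeq gene table (GRCm38.p6, used for names and gene order) changed 0 symbols. Signals were raised to the floor of 75.4 and turned to log2, with the brightest probe set per gene. Calls are differences of at least 4-fold, with no test. The named genes are all those past 4-fold and the 3 brightest of each substrate class; any other gene named was added after its values were seen. Named enzyme genes are those past 4-fold. The members, lists and rules were chosen with earlier results of these data known, and 3 symbols were added to the classes after the files were read. The alternatives were quantile normalization, scaling on poly-A spike-in or hybridization controls, floors at the pooled 25th (21.1) and 75th (433.9) percentiles, the mean of all probe sets, and 2-fold calls. The procedure was tested on simulated data, with changes planted only in genes whose mean signal was well above the floor. Changes planted in dimmer genes were not tested. Python 3.11.15, pandas 2.3.3 and numpy 2.4.6 were used.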

Additional observations from a re-analysis of the deposited data

How the results depend on the processing

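Of the 27 differences of at least 4-fold among the transporter genes, 6 stayed past 4-fold under all 6 alternatives to the scale, floor and probe set rule: those of Slc36a2, Slc38a3 and Slc38a4. None changed sign; 23 kept their direction under every alternative and the other 4 became 0 when the floor was raised to the 75th percentile. That floor removed 18 of the 27 calls, by its construction, since dim values are raised to it, and left 0 genes lower in ALCAM+ than in double-negative or Sca-1+ cells, 1 higher and 3 lower in Sca-1+ than in double-negative cells, and 3 higher in ALCAM+ than in Sca-1+ cells. The floor at the 25th percentile gave 6 lower in ALCAM+ than in double-negative cells, 6 lower in ALCAM+ than in Sca-1+ cells and 4 higher in Sca-1+ than in double-negative cells. Scaling on the poly-A controls moved the median of all measured genes to -0.58, 0.20 and -0.82 in ALCAM+ over double-negative, Sca-1+ over double-negative and ALCAM+ over Sca-1+ cells, and scaling on the hybridization controls to -0.46, 0.24 and -0.74. With the poly-A scaling 8 transporter genes were lower in ALCAM+ than in double-negative cells, with a median of -0.63, and 10 lower than in Sca-1+ cells. With the hybridization controls the last count was 8. The shares of all genes under both scalings are given with the counts above. Averaging probe sets left 0 genes higher in Sca-1+ than in double-negative cells and 1 lower in ALCAM+ than in Sca-1+ cells, and removed 8 of the 27 calls. At 2-fold, 9 were higher and 15 lower in ALCAM+ than in double-negative cells, 6 and 16 in Sca-1+ against double-negative cells, and 14 and 13 in ALCAM+ against Sca-1+ cells. The shares of all genes at that size are given above. Quantile normalization kept the counts within 1 of those reported. No paired analysis was possible because each population has 1 array. Signals near the floor limit what is known of dim genes.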

Other observations

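Genes that respond to amino acid shortage and genes that sense amino acids were above the floor on each array. In the amino acid stress list of 12 genes, 2 were at least 4-fold lower in Sca-1+ than in double-negative cells (median -0.54; 4.71% of all measured genes were lower). Chac1, a target gene of ATF4 that breaks down glutathione, had 2953 in ALCAM+, 285.0 in Sca-1+ and 2912 in double-negative cells, 10.2-fold lower in Sca-1+ than in double-negative cells. Sesn2, a leucine sensor gene that ATF4 also induces, had 783.3, 141.1 and 998.9 in the same order and was 7.08-fold lower. Vldlr was 8.05-fold higher in ALCAM+ than in double-negative cells, at 3640 against 452.2, with 1252 in Sca-1+ cells. It was the only 1 of the 12 past 4-fold in that comparison (median 0.11), where 2.01% of all measured genes were higher. In the list of 21 genes of mTORC1 amino acid sensing, Sesn2, which both lists hold, was the only one past 4-fold in any comparison, and the medians were -0.07, 0.08 and -0.29 in ALCAM+ over double-negative, Sca-1+ over double-negative and ALCAM+ over Sca-1+ cells. Of all measured genes 4.71% were lower in Sca-1+ than in double-negative cells and 3.99% higher in ALCAM+ than in Sca-1+ cells, the comparisons in which Sesn2 passed.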
